A study of Homo sapiens with 4 samples.

Results

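The genes described here are 37 members of the macroautophagy machinery and its cargo receptors, taken by symbol from a fixed list and found among the 57820 gene IDs of the complete expression files. All 37 had a value in each of the 4 libraries. Of them, 34 reached a mean of 1 RPKM over the libraries and were tested among 10771 genes. ULK2, MAP1LC3A and GABARAP did not reach it and are given by their levels alone. RPKM sets the reads of a gene against its length and against the depth of the library, so levels of different genes can be set side by side.

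The samples were MOLM-13 cells, an established human acute myeloid leukaemia line with monocytic features, grown in serum-supplemented RPMI. The GADD45g induced group held 2 libraries from cells given doxycycline for 4 days, at 1 mg/ml as labelled, to overexpress GADD45G. The untreated control group held 2 libraries from cells of the line that received no treatment. Doxycycline and the overexpressed stress-response protein differed together between the groups. Whether the line is a clone, and whether the untreated cells carry the inducible construct, is not stated in the labels.

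Macroautophagy encloses cytoplasm in a double membrane, the autophagosome, and delivers it to the lysosome. A kinase complex around ULK1 starts the process, a lipid kinase complex around PIK3C3 and BECN1 marks the membrane with PI3P, and lipid transfer by ATG2 proteins lets it grow. Ubiquitin-like proteins of the ATG8 family (the LC3 and GABARAP proteins) are then attached to the membrane lipid by enzymes resembling those of ubiquitin conjugation, and cargo receptors bind both the cargo and the ATG8 proteins. In myeloid leukaemia cells autophagy is known to turn over mitochondria and to supply nutrients under stress.

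GADD45G itself had a level of 3236 and 2118 RPKM in induced libraries, against 10.5 and 0.289 RPKM in untreated ones. Library depths, recovered from the values, were 18895470 and 15968886 reads in the induced group and 18778791 and 15683931 reads in the control group. Of 8 myeloid markers, PTPRC, CD33 and SPI1 were between 12.5 and 101 RPKM in the induced libraries and between 17.6 and 74.7 RPKM in untreated ones. MPO was at or under 0.278 RPKM in every library, and FLT3 at 0.0889 and 0.0451 RPKM in induced libraries, against 0.958 and 1.19 RPKM in untreated ones. The summed level of the 8 myeloid markers was 433 and 396 RPKM in induced libraries, against 1295 and 1003 RPKM in untreated ones; most of it was LYZ, lysozyme, at 268 and 242 RPKM against 1173 and 868 RPKM in untreated ones. ITGAM, the integrin CD11b, went the other way, at 21.2 and 17.6 RPKM in induced cells, against 8.89 and 12.9 RPKM in untreated cells (limma, adjusted p = 0.0268). CSF1R, a growth factor receptor of monocytes, had overlapping groups, at 0.976 and 1.51 RPKM in induced cells and 0.941 and 1.44 RPKM in untreated cells. The part of these marker differences in the results below was not tested. Epithelial markers followed the replicate number and not the treatment. At 1 RPKM or more were 6 of 7 in induced replicate 1 and 0 in induced replicate 2, against 6 in control replicate 1 and 0 in control replicate 2, where KRT8, KRT18, KRT19 and EPCAM were at 0. Their summed level was 40.8 and 0.245 RPKM in induced replicates 1 and 2, against 41.7 and 0.423 RPKM in control replicates 1 and 2. Summed over each list, fibroblast markers reached 6.97 RPKM at most and lymphoid markers 4.83 RPKM, and 2 erythroid markers were listed at 0 throughout.

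Of the 34 tested genes, 10 rose and 1 fell after induction at an adjusted p under 0.05 (limma on log2(RPKM + 1), Benjamini-Hochberg over all genes). The genes that rose encode the ATG8 proteins MAP1LC3B, GABARAPL1 and GABARAPL2, the protease ATG4B, the lipid transfer protein ATG2A, the PI3P-binding protein WIPI1, the ULK complex scaffold RB1CC1 and the receptors NBR1, OPTN and BNIP3L. ATG10 fell. Of the tested members 29.4% were called higher and 2.94% lower, while over all tested genes 38.9% were called, 12.2% higher and 26.7% lower. The median log2 change of the tested members was 0.13, beside -0.21 for all tested genes. TMM scaling moved the overall median to 0.005 and the overall calls to 1917 higher and 2046 lower, and with it 13 members were called higher and 1 lower. In these bulk libraries fewer cells of a type and less RNA per cell cannot be told apart. Without a filter on low values 6 of 37 members were called, all higher, beside 2462 of 20689 genes (823 higher, 1639 lower). Without control replicate 1, which leaves 1 control library, the median log2 change was 0.080 for tested members and -0.21 for all tested genes. Both induced values lay above both control values for 16 tested members and below them for 8, beside 24.1% and 45.8% of all tested genes.

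**Figure D1:**
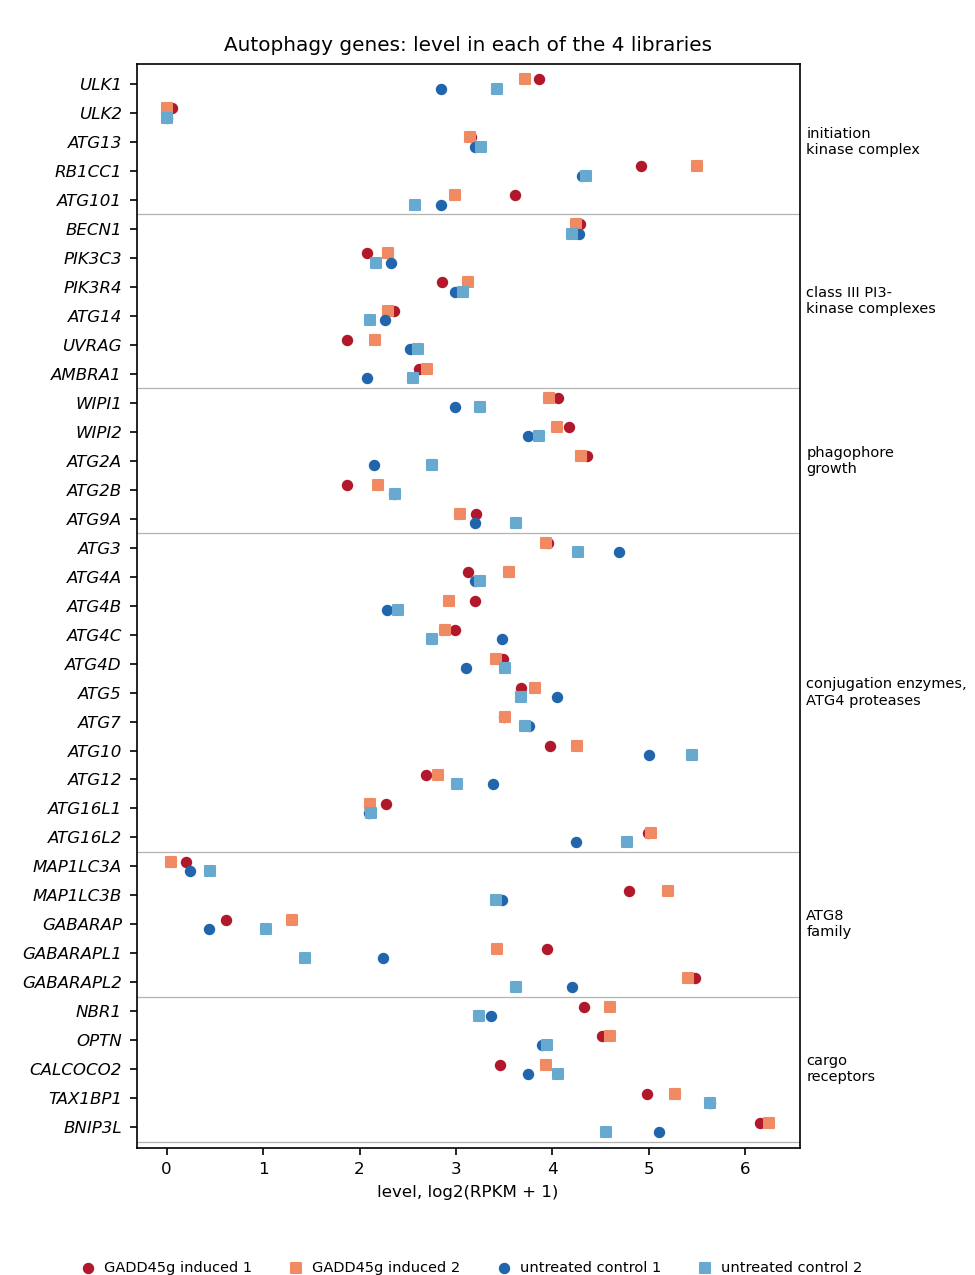
Level of each of the 37 autophagy genes in each library, as log2(RPKM + 1), grouped by role; circles are replicate 1 and squares replicate 2, with induced libraries in red and orange and untreated libraries in blue. MAP1LC3B, GABARAPL1, GABARAPL2, ATG2A and BNIP3L show induced values clear of the control values, while BECN1, ATG13 and PIK3R4 lie nearly on top of each other.

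All 3 tested members of the ATG8 family rose, beside 12.2% of all tested genes. MAP1LC3B (ENSG00000140941), which encodes the LC3B protein used to mark autophagosomes, was at 26.7 and 35.7 RPKM in induced libraries, against 10.1 and 9.70 RPKM in untreated ones. Its mean was 31.2 ± 6.35 RPKM after induction and 9.90 ± 0.287 RPKM without treatment (SD, n = 2 each), 3.15-fold higher, with a log2 change of 1.55 ± 0.24 (SE; limma, adjusted p = 0.000532). GABARAPL2 (ENSG00000034713), also known as GATE-16 and first described in transport within the Golgi, was at 43.4 and 41.5 RPKM in induced cells, against 17.4 and 11.3 RPKM in untreated cells. Its log2 change was 1.53 ± 0.26 (limma, adjusted p = 0.000925). GABARAPL1 (ENSG00000139112), whose protein is close to GABARAP in sequence, was at 14.4 and 9.77 RPKM in induced libraries, against 3.74 and 1.70 RPKM in untreated libraries, 4.44-fold higher (log2 change 1.85 ± 0.29, limma adjusted p = 0.000709). The induced and control values of all 3 genes were well apart, although some replicates differed beyond counting error, by 95% exact Poisson intervals. For GABARAPL1 these were 3.32 to 4.20 and 1.40 to 2.05 RPKM in controls, and 13.6 to 15.3 and 9.02 to 10.6 RPKM after induction. GABARAPL2 controls had 16.3 to 18.5 and 10.4 to 12.3 RPKM. Induced MAP1LC3B had 25.7 to 27.7 and 34.4 to 37.0 RPKM. Intervals overlapped for MAP1LC3B controls and for induced GABARAPL2. MAP1LC3B and GABARAPL1 have near-identical copies elsewhere in the genome (MAP1LC3B2 and GABARAPL3, not analysed here), so reads shared with these copies make their levels less certain.

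The other 2 family members had few counted reads. GABARAP, the founding member of its subfamily, was at 0.537 and 1.46 RPKM in induced libraries, against 0.353 and 1.04 RPKM in untreated ones, from 23, 53, 15 and 37 reads in that order. It was higher in replicate 2 than in replicate 1 of either group, and its groups overlapped. In GENCODE 29, 30.5% of its exonic bases are shared with AC120057.2 on the same strand and 25.2% with AC120057.3 on the opposite strand. These overlaps can affect how reads were counted, so the low level of GABARAP is uncertain. MAP1LC3A, which encodes LC3A, had 5 and 1 reads in the induced libraries (0.150 and 0.0355 RPKM), against 6 and 10 reads in the untreated ones (0.181 and 0.362 RPKM). MAP1LC3A was not tested for a difference. Its few reads leave wide counting intervals (0.0488 to 0.350 and 0.000900 to 0.198 RPKM after induction, 0.0665 to 0.395 and 0.174 to 0.665 RPKM without).

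Summed over the 5 genes, ATG8 transcripts amounted to 85.2 and 88.4 RPKM in induced libraries, against 31.8 and 24.1 RPKM in untreated ones. The means were 86.8 ± 2.26 and 28.0 ± 5.39 RPKM (SD, n = 2 each), 3.11-fold higher after induction. GABARAP enters the sum and the shares at its counted level, which its overlaps with other genes make uncertain. The order of the 3 tested genes was the same in every library. GABARAPL2 made up 51.0% and 46.9% of the sum in induced replicates 1 and 2, against 54.7% and 47.0% in control replicates 1 and 2. MAP1LC3B made up 31.3% and 40.4%, against 31.8% and 40.2%, so its share differed more between replicate numbers than between groups. GABARAPL1 held 16.9% and 11.0% in induced libraries, against 11.8% and 7.05% in the untreated ones, and was in each library the scarcest of the 3 tested genes.

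**Figure D2:**
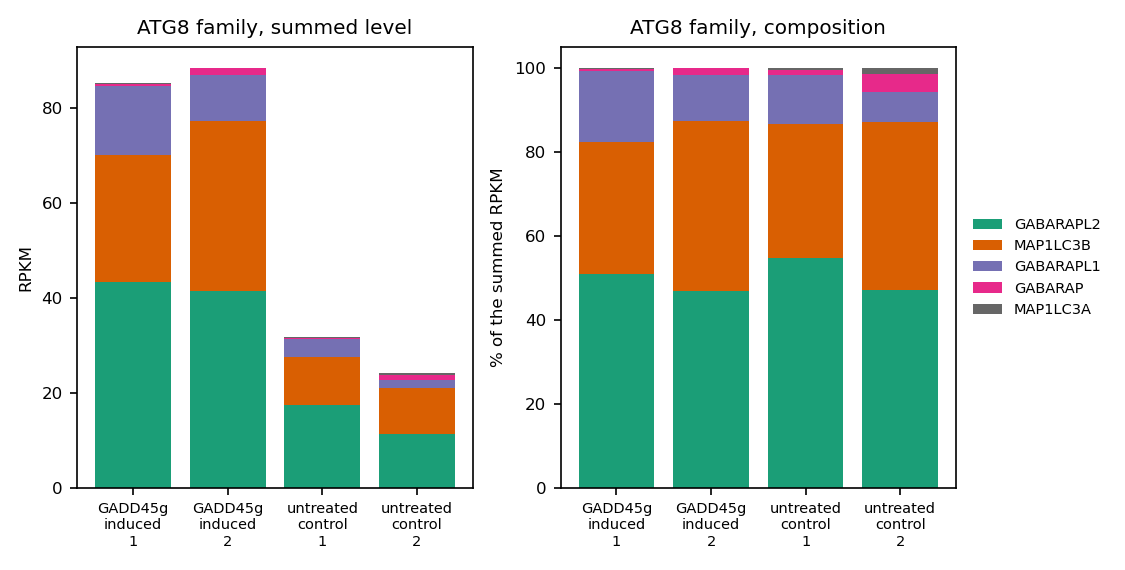
RPKM of the 5 ATG8 family genes stacked in each library (left) and the same values as a percentage of the library's sum (right), with induced libraries left of untreated ones. The sum is 85.2 and 88.4 RPKM in induced libraries against 31.8 and 24.1 RPKM in untreated ones, while GABARAPL2 holds 46.9% to 54.7% of it in all 4 libraries. GABARAP is drawn at its counted level, which is uncertain because it shares exonic bases with other genes.

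Promoter sequences were examined because these ATG8 genes and ATG2A, the tested member with the highest log2 change, rose together. The 250 bases before each RefSeq transcription start are printed 5′ to 3′ on the strand of the gene, in build GRCh38.p14, which differs from the hg19 build of the expression values. Capitals mark GC boxes (GGGCGG, read on either strand and counted without overlap) and a cyclic AMP response element (TGACGTCA). The windows are chr16:87392086-87392335 for MAP1LC3B, chr12:10212627-10212876 for GABARAPL1 and chr16:75566129-75566378 for GABARAPL2, on the plus strand, and chr11:64917210-64917459 on the minus strand for ATG2A.
MAP1LC3B: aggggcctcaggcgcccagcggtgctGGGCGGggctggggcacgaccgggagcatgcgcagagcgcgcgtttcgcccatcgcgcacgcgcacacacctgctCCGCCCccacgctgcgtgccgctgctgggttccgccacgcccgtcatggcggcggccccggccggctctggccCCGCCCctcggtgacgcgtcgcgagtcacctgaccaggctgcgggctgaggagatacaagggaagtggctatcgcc
GABARAPL1: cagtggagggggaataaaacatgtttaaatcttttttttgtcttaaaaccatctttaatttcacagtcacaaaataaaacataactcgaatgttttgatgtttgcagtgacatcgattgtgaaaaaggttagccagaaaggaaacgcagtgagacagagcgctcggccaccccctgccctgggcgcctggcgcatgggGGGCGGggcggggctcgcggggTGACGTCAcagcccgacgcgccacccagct
GABARAPL2: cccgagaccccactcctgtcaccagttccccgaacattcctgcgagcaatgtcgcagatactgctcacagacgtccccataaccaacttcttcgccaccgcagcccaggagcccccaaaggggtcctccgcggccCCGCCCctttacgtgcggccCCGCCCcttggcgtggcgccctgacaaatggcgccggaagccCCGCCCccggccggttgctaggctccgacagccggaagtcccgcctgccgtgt
ATG2A: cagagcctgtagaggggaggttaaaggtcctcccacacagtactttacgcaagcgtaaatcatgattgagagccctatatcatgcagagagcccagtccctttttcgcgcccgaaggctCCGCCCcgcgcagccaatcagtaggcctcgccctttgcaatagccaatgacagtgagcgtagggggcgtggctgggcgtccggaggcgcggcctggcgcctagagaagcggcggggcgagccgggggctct

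The MAP1LC3B stretch holds 3 GC boxes and is 74.8% G and C, that of GABARAPL2 holds 3 and is 68.4% G and C, and that of ATG2A holds 1 and is 62.4% G and C. The GABARAPL1 stretch, at 51.6% G and C, holds 1 GC box and the response element, whose first base lies 30 bases before the start. RefSeq windows of 250 bases before to 50 after a start were matched for 32 of the 37 members, as 38 windows. The palindromic motifs CACGTG (the E-box), TCACGTGA (the core of the CLEAR element bound by TFEB) and TGANTCA (the site of AP-1) were sought in them, with E-box matches including those of the CLEAR core. The E-box occurred in 2 member windows, those of ATG3 and ATG14, beside 7.26% of all 35116 windows, and the CLEAR core in 1, that of ATG3, beside 0.980% of all windows. AP-1 letters occurred in 0 member windows, beside 7.71% of all windows. None of these 3 motifs occurred in the windows of the 8 matched members that rose. The response element and the GC box were added after the sequences had been seen: the element occurred in 1 member window, beside 1.85% of all windows, and the GC box in 25, beside 45.0%. These are matches of letters in short windows and say nothing about binding.

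Among the cargo receptors, 3 of 5 rose and 0 fell, beside 12.2% and 26.7% of all tested genes. BNIP3L (ENSG00000104765), or NIX, which sits in the outer mitochondrial membrane and targets mitochondria for removal, had the highest level of all members after induction. It was at 70.2 and 75.1 RPKM in induced cells, against 33.5 and 22.5 RPKM in untreated cells (log2 change 1.37 ± 0.26, limma adjusted p = 0.00193). NBR1 (ENSG00000188554), a receptor for ubiquitinated proteins and peroxisomes, was at 19.0 and 23.2 RPKM in induced libraries, against 9.30 and 8.42 RPKM in untreated libraries. It was 2.38-fold higher, with a log2 change of 1.16 ± 0.23 (limma, adjusted p = 0.00224).

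OPTN (ENSG00000123240), optineurin, a receptor for damaged mitochondria and for bacteria, was at 21.9 and 23.2 RPKM after induction, against 13.9 and 14.3 RPKM without treatment. The replicates of each group lay close together, and the log2 change of 0.64 ± 0.22 passed narrowly (limma, adjusted p = 0.0400); with any 1 library left out it did not pass, at log2 changes of 0.60 to 0.68. The ubiquitin-binding receptors TAX1BP1 and CALCOCO2 (NDP52) did not pass in either direction. TAX1BP1, the most abundant member in untreated cells, was at 30.5 and 37.6 RPKM in induced libraries, against 48.7 and 48.8 RPKM in untreated ones (log2 change -0.51 ± 0.24, limma adjusted p = 0.111). CALCOCO2 overlapped between groups, at 10.0 and 14.2 RPKM against 12.4 and 15.7 RPKM in the untreated libraries.

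**Figure D3:**
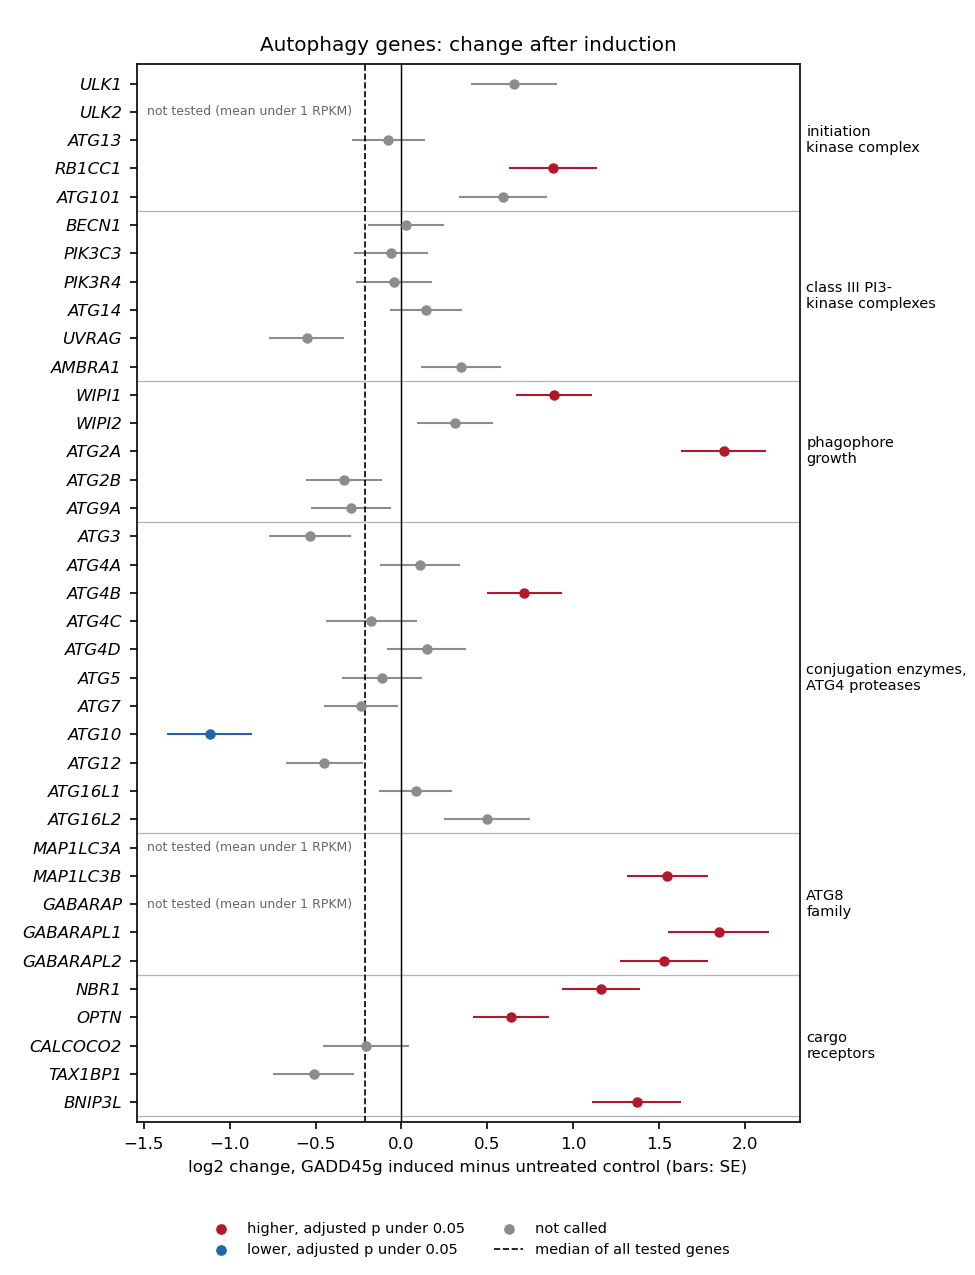
Log2 change of log2(RPKM + 1) for each of the 34 tested autophagy genes (induced minus untreated; bars are the standard error of the limma fit), grouped by role, with 0 as a solid line and the median of all tested genes as a dashed line. Genes called higher, in red, include all 3 tested ATG8 genes and 3 cargo receptors, and ATG10 in blue is the one gene called lower.

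Of the 5 genes of phagophore growth, 2 rose and 0 fell, beside 12.2% and 26.7% of all tested genes. ATG2A (ENSG00000110046), a bridge-like protein that moves lipids from the endoplasmic reticulum into the growing membrane, was at 19.6 and 18.6 RPKM in induced libraries, against 3.44 and 5.76 RPKM in untreated ones. It was 4.15-fold higher (log2 change 1.88 ± 0.25, limma adjusted p = 0.000233). Its paralog ATG2B, which does the same work, was at 2.65 and 3.57 RPKM in induced cells, against 4.13 and 4.16 RPKM in untreated cells, and did not pass (log2 change -0.33 ± 0.22, limma adjusted p = 0.257). In the untreated libraries the levels of the paralogs did not differ beyond their spread, at means of 4.60 ± 1.64 RPKM for ATG2A and 4.15 ± 0.0236 RPKM for ATG2B (SD, n = 2 each).

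WIPI1 (ENSG00000070540), a PI3P reader recruited to early autophagic membranes, was at 15.6 and 14.6 RPKM after induction, against 6.95 and 8.51 RPKM without treatment (log2 change 0.89 ± 0.22, limma adjusted p = 0.00897). The groups did not overlap, but the call was lost without control replicate 1 and without induced replicate 1, with adjusted p up to 0.0597. ARSG on the opposite strand shares 24.3% of the exonic bases of WIPI1 in GENCODE 29; it was at 2.44 and 2.69 RPKM in induced cells, against 1.61 and 2.01 RPKM in untreated cells. WIPI2, the reader that brings in the ATG16L1 complex, had a log2 change of 0.31 ± 0.22 and did not pass. ATG9A, the membrane protein carried by the vesicles that seed the phagophore, had one of -0.29 ± 0.23 and did not pass. In GENCODE 29, 38.8% of the exonic bases of ATG9A are shared with AC068946.2 on the same strand, which can affect how reads were counted.

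The initiation complex had 1 riser among 4 tested members, beside 12.2% of all tested genes called higher. RB1CC1 (ENSG00000023287), also called FIP200, the scaffold that binds ULK1 and ATG13, was at 29.3 and 44.1 RPKM in induced libraries, against 18.8 and 19.3 RPKM in untreated ones (log2 change 0.88 ± 0.25, limma adjusted p = 0.0188). The induced replicates were far apart, and leaving out a library gave log2 changes of 0.60 to 1.17. The call held in 1 of these 4 fits, that without induced replicate 1, and was lost in the other 3. The kinase gene ULK1 was at 13.6 and 12.2 RPKM in induced cells, against 6.19 and 9.73 RPKM in untreated cells. Its log2 change of 0.66 ± 0.25 did not pass (limma, adjusted p = 0.0586), although it did in 8 of 14 alternatives, the scaling ones among them. ATG101, a small subunit that stabilises ATG13, was at 11.3 and 6.93 RPKM in induced libraries, against 6.19 and 4.96 RPKM in untreated ones, and did not pass (log2 change 0.59 ± 0.26, limma adjusted p = 0.0931). It was called higher in 6 of 14 alternatives, namely with the replicate block (adjusted p = 0.0365), with TMM, quantile and shifted scaling, by voom and without induced replicate 2, over a range of adjusted p of 0.0270 to 0.571. ATG13, the subunit that links ULK1 to RB1CC1, was at 7.92 and 7.85 RPKM in induced cells, against 8.18 and 8.56 RPKM in untreated cells, and was called in 0 alternatives. ULK2, the paralog of ULK1, had 7 and 0 reads in the induced libraries and 1 and 0 reads in the untreated ones, where a count of 0 reads in the replicate 2 libraries allows up to 0.0191 and 0.0194 RPKM.

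Of the 6 genes of the class III PI3-kinase complexes, 0 passed in either direction by limma, beside 38.9% of all tested genes. In 1 of them, UVRAG, the unadjusted p was under 0.05. UVRAG was called lower with the replicate number as a block and by voom on recovered reads, and the other 5 were called in 0 alternatives. BECN1, the scaffold beclin 1, was at 18.6 and 18.0 RPKM in induced libraries, against 18.4 and 17.4 RPKM in untreated libraries. The lipid kinase PIK3C3 (VPS34) was at 3.23 and 3.91 RPKM after induction, against 4.02 and 3.52 RPKM without, and its regulatory subunit PIK3R4 (VPS15) at 6.22 and 7.75 RPKM, against 6.94 and 7.44 RPKM without. The groups of these 3 genes overlapped, and the signs of PIK3C3 and PIK3R4 turned with TMM scaling. ATG14, the subunit that directs the complex to autophagy, had a log2 change of 0.14 ± 0.21 and AMBRA1, a regulator of BECN1, one of 0.34 ± 0.23. UVRAG, the alternative subunit of the endosomal complex, was at 2.67 and 3.47 RPKM in induced cells, against 4.76 and 5.11 RPKM in untreated cells (log2 change -0.55 ± 0.22, limma adjusted p = 0.0680).

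The conjugation enzymes and ATG4 proteases were the largest group, with 1 of 11 higher and 1 lower. That is 9.09% each way, beside 12.2% higher and 26.7% lower over all tested genes. ATG4B (ENSG00000168397), the main protease that trims ATG8 proteins before conjugation and releases them afterwards, was at 8.15 and 6.62 RPKM in induced libraries, against 3.89 and 4.28 RPKM in untreated ones. Its log2 change was 0.72 ± 0.22 (limma, adjusted p = 0.0236), and with any 1 library left out it did not pass, at log2 changes of 0.58 to 0.85. The other proteases ATG4A, ATG4C and ATG4D had log2 changes of 0.11, -0.18 and 0.15 and overlapped between groups, and scaling by TMM turned the sign of ATG4C.

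ATG10 (ENSG00000152348), the enzyme that joins ATG12 to ATG5, was at 14.7 and 18.0 RPKM in induced cells, against 31.1 and 42.8 RPKM in untreated cells (log2 change -1.12 ± 0.25, limma adjusted p = 0.00489). In GENCODE 29, 374 of its exonic bases, 6.86%, are shared with the ribosomal protein gene RPS23 on the opposite strand. RPS23 was at 53.1 and 53.2 RPKM in induced cells, against 127 and 131 RPKM in untreated cells, and fell by 1.26 on the log2 scale (limma, adjusted p = 0.00187). ATG10 had 1512 and 1569 reads in the induced libraries and RPS23 4220 and 3574, against 3185 and 3654 for ATG10 and 9996 and 8626 for RPS23 in the untreated ones. Counting by strand is not stated, so reads of these genes cannot be told apart where they overlap. In all, 21 of the 37 members share exonic bases with another gene model. Members that were not called include ATG101 (19.2%, with AC025259.1), ATG7 (18.1%, with VGLL4) and ATG4D (15.0%, with KRI1), all on the opposite strand. Among the members that rose such overlaps are on the opposite strand, as for MAP1LC3B with FBXO31 (2.82% of its exonic bases), ATG4B with THAP4 (3.57%), NBR1 with AC060780.1 (5.51%), BNIP3L with PNMA2 (7.66%) and GABARAPL1 with AC115676.1 (8.05%).

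The other 6 tested enzymes and partners of the conjugation cascade did not pass in either direction. ATG7, the activating enzyme of both conjugation systems, was at 10.3 RPKM in both induced libraries, against 12.5 and 12.1 RPKM in untreated ones (log2 change -0.24 ± 0.21). ATG3, which attaches ATG8 proteins to lipid, was at 14.5 and 14.3 RPKM in induced libraries, against 24.8 and 18.2 RPKM in untreated ones, and its log2 change of -0.53 ± 0.24 did not pass (limma, adjusted p = 0.0994). ATG12, the ubiquitin-like protein that forms the ligase, was at 5.44 and 6.04 RPKM after induction, against 9.45 and 7.08 RPKM without (limma, adjusted p = 0.143). Its partners ATG5 and ATG16L1 had log2 changes of -0.11 and 0.08 and overlapping groups. ATG16L2, a paralog of ATG16L1 abundant in immune cells, was at 30.8 and 31.6 RPKM in induced libraries, against 18.0 and 26.4 RPKM in untreated ones (log2 change 0.50 ± 0.25, limma adjusted p = 0.142). It was called higher in 2 of 14 alternatives, with TMM scaling and with the median change shifted to 0, over a range of adjusted p of 0.0363 to 0.491.

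**Figure D4:**
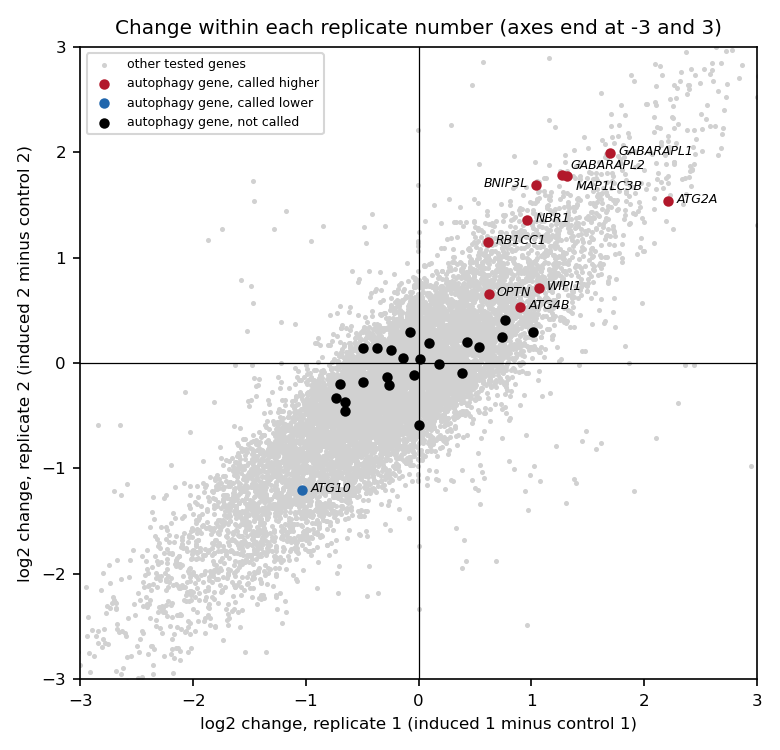
Log2 change within replicate number 1 (horizontal) and replicate number 2 (vertical) for the 34 tested autophagy genes, with all other tested genes in grey; values are differences of log2(RPKM + 1), induced minus untreated. The 10 genes called higher lie at 0.61 to 2.21 in replicate 1 and at 0.53 to 1.99 in replicate 2, and ATG10 lies below 0 in both; grey points beyond the axis ends are not drawn.

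All 11 members that changed differed in the same direction within both replicate numbers. They were called on these same 4 libraries, so this agreement largely follows from the call and adds no separate support. The 10 that rose had log2 changes of 0.61 to 2.21 in replicate 1 and of 0.53 to 1.99 in replicate 2. The part of the epithelial signal of replicate 1 in these changes was not tested. Of the 23 tested members that did not pass, 4 had an unadjusted limma p under 0.05 (ULK1, ATG101, UVRAG and ATG3, named after their values were seen), and 8 had opposite signs in the 2 replicate numbers. Their log2 changes ran from -0.55 to 0.66. ATG2A, MAP1LC3B, GABARAPL2, NBR1 and BNIP3L were called higher in each of the 14 alternatives, while GABARAPL1 was called higher and ATG10 lower in 13, all but that without a filter on low values (adjusted p = 0.0529 and 0.0518). RB1CC1, ATG4B and OPTN also lost their calls without that filter.

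Genes that work beside the members, listed by role, were counted in the same fit. Their shares are to be read beside all tested genes, of which 12.2% were called higher and 26.7% lower. Of 13 tested factors of the core and membrane group, 6 rose (46.2%) and 2 fell (15.4%). TECPR1, which tethers autophagosomes to lysosomes, was at 8.15 and 6.51 RPKM in induced libraries, against 3.45 and 3.48 RPKM in untreated ones (limma, adjusted p = 0.00802). WDR45B, a PI3P reader related to the WIPI proteins, was 2.12-fold higher and SH3GLB1, a partner of UVRAG, 1.78-fold higher, while the membrane protein EI24 was 1.75-fold lower.

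Of 16 tested receptors and mitophagy factors outside the members, 5 rose and 3 fell, beside 12.2% and 26.7% of all tested genes. SQSTM1, or p62, the receptor that gathers ubiquitinated proteins, was at 354 and 252 RPKM in induced cells, against 72.9 and 66.3 RPKM in untreated cells (log2 change 2.09 ± 0.27, limma adjusted p = 0.000179). Its level was above that of every member. CALCOCO1, a receptor for the endoplasmic reticulum and Golgi, was at 44.8 and 33.5 RPKM after induction, against 9.28 and 9.47 RPKM without. PINK1, the kinase that flags damaged mitochondria, was 2.16-fold higher. RETREG1 (FAM134B), another receptor for the endoplasmic reticulum, was at 2.11 and 2.59 RPKM in induced cells, against 12.0 and 11.1 RPKM in untreated cells (limma, adjusted p = 8.49e-05).

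Of 13 tested genes of fusion with the lysosome, 0 rose and 2 fell, beside 12.2% and 26.7% of all tested genes. VAMP8, a SNARE of the lysosomal side, was at 60.5 and 30.0 RPKM in induced libraries, against 181 and 107 RPKM in untreated libraries (limma, adjusted p = 0.00377), and TGFBRAP1, a subunit of the endosomal tethering complex CORVET, was 3.82-fold lower. VPS41 and VPS16, tethering subunits, had log2 changes of -0.55 and 0.51 and did not pass. Of 23 tested lysosomal membrane proteins, proton pump subunits and hydrolases, 8 rose (34.8%) and 3 fell (13.0%). The protease gene CTSB was at 581 and 554 RPKM in induced cells, against 105 and 126 RPKM in untreated cells, and the protease gene CTSD at 312 and 303 RPKM, against 1030 and 1327 RPKM in untreated cells. The cholesterol exporter NPC1 was 2.47-fold higher and MCOLN1, a calcium channel of the lysosome, 2.45-fold higher.

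Among 17 tested upstream kinases and nutrient sensors, 2 rose and 2 fell, 11.8% each way. Over all tested genes 12.2% were called higher, a like share, and 26.7% lower. The Rag GTPase gene RRAGA was at 65.0 and 49.2 RPKM in induced libraries, against 22.4 and 19.9 RPKM in untreated ones, and RPTOR, the adaptor of mTORC1, was 2.28-fold higher. MLST8, a subunit of both mTOR complexes, was 3.37-fold lower and RRAGD 1.59-fold lower. Of 12 tested transcription factors linked to autophagy and lysosome genes, 3 rose (25.0%) and 1 fell (8.33%). FOXO4 was 3.65-fold, CEBPB 3.79-fold and TFE3 2.09-fold higher, and E2F1 was 4.96-fold lower. TFEB, named after its values were seen, was at 6.51 and 4.79 RPKM in induced cells, against 7.32 and 9.53 RPKM in untreated cells and did not pass (limma, adjusted p = 0.116). ULK3, a relative of ULK1 and the one paralog outside the members that was tested, was 2.15-fold lower.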

How the data were processed

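RNA-seq was made from 2 GADD45g induced and 2 untreated control libraries of MOLM-13 cells. The values are RPKM per Ensembl gene ID as the authors deposited them, per the file headers. TopHat, Cuffnorm, Cuffdiff and hg19 are named, without versions or roles, in the submitters' processing notes; strand use and the origin of the replicates are not stated there or in the labels, so p-values may measure technical spread only.

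Symbols came from GENCODE 29, and rows of 1 symbol were summed. As used here, the table of induced replicate 1 stops partway through a row, 27332 of 57820 IDs in; genes beyond it were not analysed here, and library depth was recovered from the steps between low RPKM values. For IDs of the same version in GENCODE 29, all low values (up to 20 reads) were whole reads within 0.01 reads. Elsewhere the length nearest that of GENCODE 29 was chosen among lengths giving whole reads within 0.005 in all 4 libraries. A length was thus set for 98.5% of tested IDs, which is no check on the read counts. It equalled that of GENCODE 29 for 25 of the 37 members. Counting intervals are 95% exact Poisson and cover counting error only; the limit for a count of 0 is 3 reads.

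Genes averaging 1 RPKM or more entered limma 3.58.1 in R 4.3.3 (log2(RPKM + 1), trended moderation, 2 residual degrees of freedom plus 8.72 from the prior), two-sided, with Benjamini-Hochberg adjustment and a threshold of 0.05. Fold changes of log2(RPKM + 1) understate the change of low genes; folds written as "-fold" are ratios of mean RPKM. The fit was tested on simulated data with independent libraries, drawn from its own variance estimates. This checks the code and not the calls made here. Tables were handled with pandas 2.3.3 and numpy 2.4.6. Alternatives were other pseudocounts, filters, scalings and priors, the replicate number as a block, voom on recovered reads, and each library left out.

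The members and lists were chosen with earlier results of these data known. Per-library values were planned for the ATG8 family and for members with an adjusted p under 0.05 and an absolute log2 change of at least 0.5. They are also given for some other members, outside that plan. From each related list, up to 4 tested genes with the smallest adjusted p are named. The promoter windows were taken from RefSeq on GRCh38.p14 and the gene overlaps from GENCODE 29.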

Additional observations from a re-analysis of the deposited data

How the results depend on the processing

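Over 14 alternatives, 5 of the 11 called members (ATG2A, MAP1LC3B, GABARAPL2, NBR1 and BNIP3L) passed in each, and 0 of the 11 changed sign. Without a filter on low values, 2462 of all tested genes were called (823 higher, 1639 lower) and 6 members, with 6 higher and 0 lower; the larger number of genes tested, 20689, enters the adjustment. Leaving out 1 library gave 2770 to 3606 calls over all genes, 826 to 1165 higher and 1907 to 2441 lower, with the fewest in all without induced replicate 2 and the fewest higher without induced replicate 1. It gave 7 to 9 called members, 6 to 8 of them higher and 1 lower. With a replicate block, 4987 of all genes and 14 members were called, 12 higher and 2 lower, and voom on recovered reads called 4631 of all genes and 14 members, also 12 higher and 2 lower. The replicate numbers come from title suffixes alone; deviations of same-numbered libraries correlated at 0.349 over 10771 genes, with only 2 pairs. The members' median log2 change was 0.078 with a pseudocount of 5, 0.23 with a filter at 5 RPKM, 0.34 with TMM scaling, 0.35 with quantile normalization, 0.34 with the median change shifted to 0, 0.16 with voom, and 0.080 to 0.17 with 1 library left out. Signs turned in 11 members, none of them called: with TMM, quantile and shifted scaling for ATG13 (0.15, 0.14, 0.14), PIK3C3 (0.14, 0.22, 0.15), PIK3R4 (0.18, 0.19, 0.17), ATG4C (0.051, 0.063, 0.036) and ATG5 (0.13, 0.057, 0.098), with TMM and shifted scaling for CALCOCO2 (0.034, 0.0055), and with TMM for ATG7 (0.0024). With 1 library left out, log2 changes ran from -0.0086 to 0.062 for BECN1, from -0.17 to 0.045 for PIK3C3, from -0.18 to 0.095 for PIK3R4, from -0.10 to 0.32 for ATG4A, from -0.54 to 0.19 for ATG4C, from -0.058 to 0.35 for ATG4D, from -0.30 to 0.073 for ATG5, from -0.0016 to 0.17 for ATG16L1 and from -0.44 to 0.028 for CALCOCO2. Depth limits ULK2, MAP1LC3A and GABARAP, and 2 libraries a group limit the precision of every value. The cause of these changes was not tested.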
